A study of Mus musculus with 6 samples.

Results

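Septins are GTP-binding proteins that assemble end to end into hetero-oligomers and filaments, which lie on the plasma membrane and beside actin and microtubules. The mammalian family is divided by sequence into the SEPT2, SEPT6, SEPT7 and SEPT3 groups, and 1 member of each group can take a place in the oligomer, with members of a group able to stand in for one another. In epithelia, septins are known from the cleavage furrow of dividing cells, the actin cortex, polarised vesicle transport and the base of the primary cilium.

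The transcripts of 9 septin genes, *Sept2*, *Sept4*, *Sept5*, *Sept6*, *Sept7*, *Sept8*, *Sept9*, *Sept10* and *Sept11*, were followed in primary mouse renal tubule epithelial cells (RTECs) with and without transforming growth factor beta 1 (TGF-β1), a cytokine of kidney fibrosis. The 9 genes were taken from 46517 genes in the count tables by Ensembl identifier and symbol, and 13 septin genes were found there in all. The family was chosen with the TGF-β1 and CTL values of these cultures known, so the values of its members in that contrast are given as a description and carry no test. All 9 members were among the 15862 genes with enough counts to be tested.

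The cells came from kidneys of wild-type FvB mice, aged 4 to 6 weeks by the sample labels and 3 to 5 weeks, males, by the study's methods. All 6 cultures were kept serum-free for 24 h. In 3 of them, TGF-β1 was then given at 50 ng/ml for 24 h (TGF-β1 group), and the other 3 were controls (CTL group). Poly(A) RNA was sequenced and reads were counted per gene, with 28313080 to 34183497 reads on genes per culture. Values below are CPM, the counts scaled by library size and TMM factors, and 3 counts correspond to 0.0878 to 0.106 CPM.

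The cultures differed by replicate number as well as by treatment. Summed fibroblast and pericyte markers (*Pdgfra*, *Pdgfrb*, *Dcn*, *Lum*, *Col1a1*) stood at 1710 CPM in CTL replicate 2 and 1960 CPM in TGF-β1 replicate 2, against 583 to 864 CPM in the other 4 cultures. Summed tubule epithelial markers (*Epcam*, *Cdh1*, *Cdh16*, *Krt8*, *Krt18*, *Krt19*, *Pax8*) were at 1020 and 886 CPM in the replicate 2 cultures and at 1790 to 2750 CPM in the others. The sum of 4 Y-linked transcripts was 151 and 142 CPM in the replicate 2 cultures and at most 0.172 CPM elsewhere, although the methods describe male mice. The defining endothelial genes *Pecam1*, *Cdh5*, *Kdr* and *Tek* and the podocyte gene *Nphs1* were under 1 CPM. The endothelial gene *Emcn* was at 0.148 to 1.08 CPM, and *Synpo*, on the podocyte list, was at 374 to 541 CPM in CTL and 295 to 355 CPM in TGF-β1 cultures (log2 difference -0.52 ± 0.15, edgeR adjusted p = 0.0739; with the replicate number as a block, -0.51 ± 0.09, adjusted p = 0.00662). Summed leukocyte markers reached 5.99 to 19.5 CPM. Among the fibroblast markers *Lum* was under 1 CPM, and summed smooth muscle markers (*Myh11*, *Cnn1*, *Des*) were 223 to 348 CPM in CTL and 245 to 468 CPM in TGF-β1 cultures. In bulk RNA, fewer cells of a type cannot be told apart from less RNA per cell. The TGF-β1 response was present: *Fn1* and *Smad7* rose by 1.04 ± 0.09 and 0.55 ± 0.09 on the log2 scale (± SE, n = 3 per group), with edgeR adjusted p of 0.00379 and 0.014. *Ccn2*, another TGF-β1 target, was at a log2 difference of 0.18 ± 0.08 (adjusted p = 0.22), and with the replicate block at 0.18 ± 0.06 it passed (adjusted p = 0.0438).

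*Sept4* and *Sept9* lie on the same chromosome and were the members with the largest difference in each direction, so 1 start-site window of each is shown first. Each covers 250 bases before and 50 bases after an annotated RefSeq start on GRCm38.p6, plus strand, at chr11:87580811-87581110 for *Sept4* and chr11:117199411-117199710 for *Sept9*. Capitals mark CAGAC, the letters of an extended Smad-binding element, or its reverse complement. The *Sept4* start lies inside the gene as GENCODE annotates it, and the *Sept9* start is at the gene's 5′ end. Of the windows RefSeq lists, each is the most upstream whose start is also a start in GENCODE's basic set.
Sept4: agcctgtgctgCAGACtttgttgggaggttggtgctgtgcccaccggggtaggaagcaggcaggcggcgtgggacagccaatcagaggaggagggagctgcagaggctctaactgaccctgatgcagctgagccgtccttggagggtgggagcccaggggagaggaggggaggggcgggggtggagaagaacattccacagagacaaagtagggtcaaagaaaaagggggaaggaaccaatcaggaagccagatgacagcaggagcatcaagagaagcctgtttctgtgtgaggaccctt
Sept9: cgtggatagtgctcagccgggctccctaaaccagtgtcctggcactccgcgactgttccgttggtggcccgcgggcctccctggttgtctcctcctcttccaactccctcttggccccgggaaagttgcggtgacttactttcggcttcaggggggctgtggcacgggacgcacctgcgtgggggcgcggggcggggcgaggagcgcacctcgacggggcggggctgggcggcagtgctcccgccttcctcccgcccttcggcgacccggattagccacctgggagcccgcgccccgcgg

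The *Sept4* window held 5 CpG dinucleotides at a GC content of 59.0%, and its CAGAC match begins at base -239 from the start. The *Sept9* window held 31 CpG at a GC content of 71.3% and no match. Every other *Sept9* window held a match. In a further *Sept9* window whose start is also in GENCODE's basic set, the match begins at base -71. Of the other *Sept4* windows, not all held a match. RefSeq windows were at hand for 7 of the 9 members, 16 windows in all, the exceptions being *Sept5* and *Sept6*. CAGAC on either strand was in 8 of these 16 windows, next to 49.6% of 32851 windows of the same length over all genes. Neither TATAAA nor a CArG box was in any of the 16, next to 13.6% and 1.63% of all windows. A match is a string of letters and not a binding site, and gene-level counts do not tell which start was used.

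The levels of the family covered a wide range. Divided by the union length of each gene's exons, *Sept11* of the SEPT6 group was the most abundant, with 84.6 ± 18.9 CPM per kb in CTL and 80.3 ± 10.1 in TGF-β1 cultures (mean ± SD, n = 3). *Sept2*, which is known for the diffusion barrier at the cilium base, was second with 56.2 ± 2.84 and 62.5 ± 3.92 CPM per kb. *Sept11* ranked first and *Sept2* second in all 6 cultures.

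*Sept7*, the sole member of its group and a subunit that oligomers need, had 24.7 ± 1.98 CPM per kb in CTL and 24.6 ± 1.76 in TGF-β1 cultures. *Sept8* had 19.6 ± 0.902 and 15.2 ± 0.968 CPM per kb, and *Sept9*, the SEPT3-group subunit of the longer oligomers, had 16.7 ± 2.37 and 24.5 ± 5.67. These neighbours changed places: *Sept8* was 4th and *Sept9* 5th in each CTL culture, and *Sept8* was 5th in each TGF-β1 culture with *Sept9* at 4th, 3rd and 4th. These places are those by union exon length, with the full exon length of *Sept5*. By this length, the CTL means of *Sept8* and *Sept9* were further apart than either SD. In TGF-β1 cultures, *Sept9* and *Sept7* then did not differ beyond the spread of *Sept9*. With the longest transcript as the length, the CTL means were 26.2 for *Sept8*, 26.0 for *Sept9* and 62.8 CPM per kb for *Sept7*. The places of *Sept8* and *Sept9*, and the nearness of *Sept9* to *Sept7*, thus rest on the length used.

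Below them, *Sept10* had 10.1 ± 0.16 and 9.0 ± 0.408 CPM per kb in CTL and TGF-β1 cultures, and *Sept5* had 9.93 ± 3.06 and 8.74 ± 2.97. *Sept4* had 8.31 ± 0.249 and 2.5 ± 0.0982 CPM per kb. In CTL, *Sept10*, *Sept5* and *Sept4* lay within the spread of *Sept5* of one another, and with the longest transcript as the length *Sept4* came ahead of *Sept10* and *Sept5*. The place of *Sept5* rests on its length, since 1902 of its 3915 exon bases are shared with *Gp1bb*. Over the other 2013 bases it had 19.3 ± 5.95 and 17.0 ± 5.77 CPM per kb, near *Sept8* and *Sept9*, and came 4th to 6th in every culture. *Sept6*, an X-linked gene, was the lowest with 1.2 ± 0.152 and 1.31 ± 0.136 CPM per kb.

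**Figure D1:**
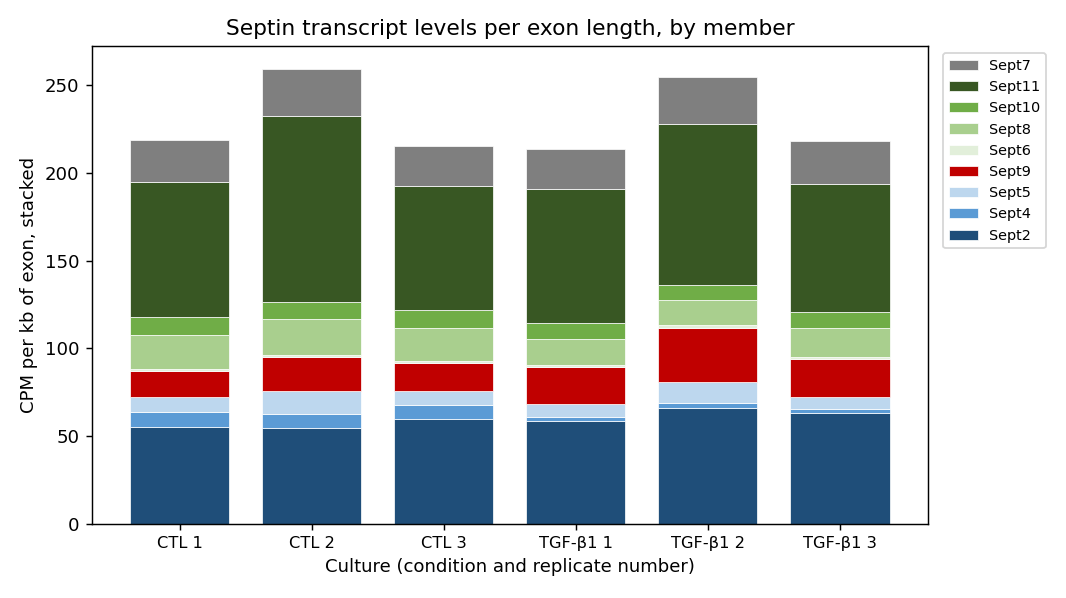
Levels of the 9 septins in CPM per kb of union exon (y axis), stacked for each of the 6 cultures (x axis, condition and replicate number), with the SEPT2 group in blue, the SEPT3 group in red, the SEPT6 group in green and *Sept7* in grey. *Sept11* and *Sept2* make up most of each bar, and the replicate 2 bars are the tallest in both groups.

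The sum over all septins was 232 ± 24.2 CPM per kb in CTL, with cultures from 217 to 260, and 229 ± 22.3 in TGF-β1 cultures, from 214 to 255. The SEPT6 group took 49.5% ± 3.21 of the sum in CTL and 46.2% ± 0.993 in TGF-β1 cultures, and the SEPT2 group took 32.3% ± 2.87 and 32.3% ± 0.796 (SD, n = 3). *Sept7* took 10.6% ± 0.336 and 10.8% ± 0.389. The SEPT3 group, which is almost all *Sept9*, had 7.1%, 7.61% and 8.04% in CTL replicates 1 to 3 and 10.0%, 12.3% and 9.95% in TGF-β1 replicates 1 to 3, without overlap. The sum and the shares of 3 groups thus overlapped between the conditions, and that of the SEPT3 group did not.

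In the TGF-β1 contrast, the members lay between log2 differences of -1.73 and 0.55, with a median of -0.07, next to a median of -0.0028 over all genes. No member was past the adjusted p threshold of 0.05 as higher and 2 of 9, *Sept4* and *Sept8*, were past it as lower, where the background over all genes was 5.00% higher and 6.69% lower. With the replicate number as a block in the fit, 1 of 9 was past it as higher (*Sept9*) and 4 of 9 as lower (*Sept4*, *Sept5*, *Sept8*, *Sept10*), next to 15.1% and 19.1% of all genes. All 3 TGF-β1 values lay above all 3 CTL values for 1 member and below them for 3, and the same held for 17.2% and 18.0% of all genes. As the family was picked from this contrast, these shares are given as description. At an unadjusted p under 0.05 there were 1 higher and 3 lower members, where 28.6% of all genes were under it in either direction. DESeq2 called 1 member higher and 2 lower, and 7.57% and 9.59% of all genes. Of the 7 tubule epithelial markers, 2 fell with TGF-β1 (*Cdh16* and *Pax8*, edgeR adjusted p = 0.00922 and 0.00436), and 5 fell with the block (also *Epcam*, *Cdh1* and *Krt19*, adjusted p = 0.0376, 0.0194 and 0.00039). Their summed level was 1020 to 2750 CPM in CTL and 886 to 2240 CPM in TGF-β1 cultures. Of the fibroblast and pericyte markers 0 of the 4 tested passed, 1 and 2 passed as higher and lower with the block, and the sums of 583 to 1710 and 632 to 1960 CPM overlapped. Of the 3 smooth muscle genes, *Des* fell (adjusted p = 0.0113), and *Cnn1* and *Myh11*, at log2 differences of 0.88 ± 0.32 and 0.89 ± 0.54 (adjusted p = 0.141 and 0.335), rose only with the block (adjusted p = 1.7e-05 and 0.018). Of the 4 leukocyte genes, 1 fell (*Csf1r*, adjusted p = 0.0238). The part of these cell types in the septin values was not tested.

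**Figure D2:**
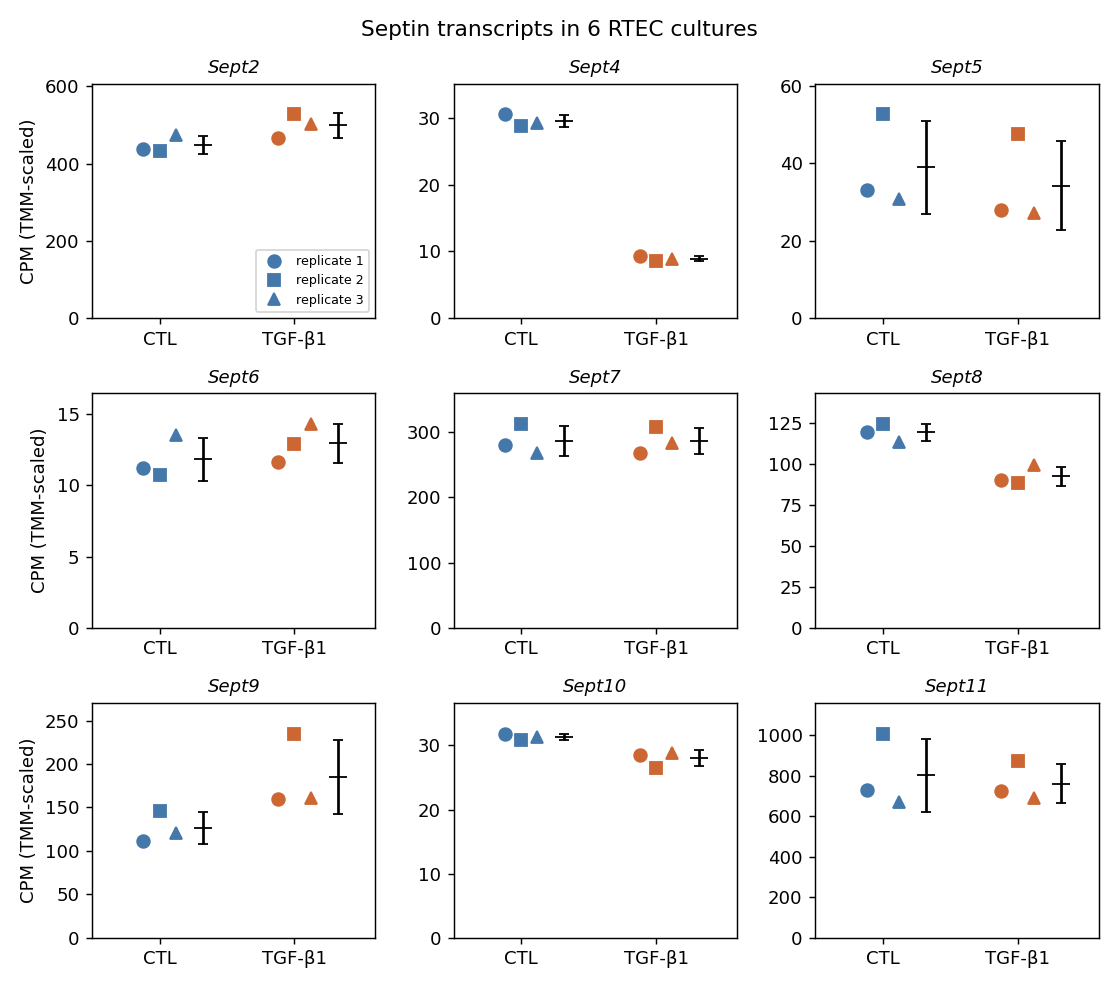
TMM-scaled CPM (y axes, from 0) of each septin in the 3 CTL (blue) and 3 TGF-β1 (orange) cultures, with a symbol for each replicate number and the mean ± SD in black. *Sept4* and *Sept8* lie lower in the TGF-β1 cultures without overlap, and *Sept9* lies higher. Replicate 2 (square) stands highest in both groups for *Sept5*, *Sept7*, *Sept9* and *Sept11*.

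Among the SEPT2 group, *Sept4* differed the most. This gene, at chr11:87568903-87590539, encodes a septin of sperm tails and brain as well as the proapoptotic isoform ARTS. It had 30.6, 28.9 and 29.3 CPM in CTL replicates 1 to 3 and 9.24, 8.54 and 8.90 CPM in TGF-β1 replicates 1 to 3. The 3 treated values were close to each other and far below all the controls. *Sept4* fell by 1.73 ± 0.07 on the log2 scale (± SE), to 0.3 of the CTL level, and without each of the 6 cultures in turn the value was -1.76 to -1.71. The same-numbered pairs gave -1.73, -1.76 and -1.72. Without both replicate 1 cultures and without a block it was -1.74 and not past the threshold, in a fit where edgeR called 0 of all genes and 1938 had an unadjusted p under 0.05.

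*Sept2*, at chr1:93478964-93510260, was at 438, 432 and 474 CPM in CTL and 466, 528 and 503 CPM in TGF-β1 cultures. The highest control lay above the lowest treated culture, and the log2 difference was 0.15 ± 0.07, not past the threshold with or without the block. *Sept5*, at chr16:18620502-18629954, encodes a septin that binds syntaxin 1 and is known from synaptic vesicle release, and had 33.2, 52.6 and 30.8 CPM in CTL and 28.0, 47.6 and 27.0 CPM in TGF-β1 cultures. In both groups, replicate 2 was far above the others, so that the groups overlapped. The log2 difference was -0.19 ± 0.30 without the block and -0.19 ± 0.05 with it, and *Sept5* was past the threshold only with it. Each treated culture was below its same-numbered control, by log2 ratios of -0.25, -0.14 and -0.19. Of the exon bases of *Sept5*, 48.6% (1902 of 3915) are shared with *Gp1bb*, a platelet receptor gene on the same strand, so reads there could not be assigned to one of them and its level is uncertain.

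In the SEPT3 group, *Sept9* was the member with the largest positive difference. SEPT9, encoded at chr11:117199661-117362325, extends the shorter oligomers and is known for binding actin bundles and microtubules. It had 112, 146 and 121 CPM in CTL and 160, 235 and 161 CPM in TGF-β1 cultures. The groups did not overlap, although CTL replicate 2 came close to the lowest treated cultures. The log2 difference was 0.55 ± 0.18, not past the threshold, and with the replicate block it was 0.54 ± 0.06 and past it. Same-numbered pairs gave log2 ratios of 0.52, 0.68 and 0.41, all positive, and DESeq2 also placed *Sept9* past the threshold. Leaving out single cultures gave values of 0.34, without TGF-β1 replicate 2, to 0.67, none of them past it. Without both replicate 2 cultures, the value was 0.46 and past the threshold.

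**Figure D3:**
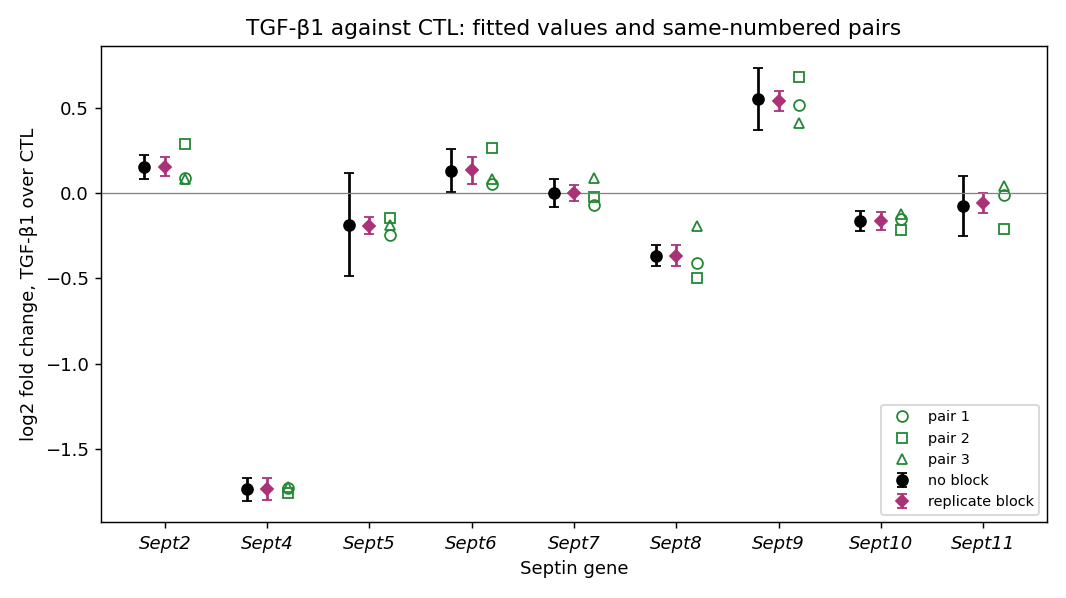
Log2 fold change of TGF-β1 over CTL (y axis) for each septin (x axis), as fitted without the replicate block (black circles) and with it (purple diamonds), with bars of 1 SE, and as the ratio within each same-numbered pair (open green symbols). The SE of *Sept5* and *Sept9* is much smaller with the block, and the pairs of *Sept7* and *Sept11* fall on both sides of 0.

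In the SEPT6 group, whose members can replace SEPT6 in the oligomer, *Sept8* fell and *Sept10* had a smaller difference of the same sign. *Sept8*, at chr11:53519257-53549565, had 120.0, 125 and 114 CPM in CTL and 90.3, 88.3 and 99.4 CPM in TGF-β1 cultures, without overlap. It fell by 0.37 ± 0.06 on the log2 scale, to 0.776 of the CTL level. It missed the threshold without CTL replicate 1, CTL replicate 2 or TGF-β1 replicate 1, at -0.36, -0.33 and -0.34. *Sept10*, at chr10:59141627-59221847, had 31.8, 30.8 and 31.4 CPM in CTL and 28.6, 26.5 and 28.8 CPM in TGF-β1 cultures. Its groups did not overlap, and the log2 difference of -0.16 ± 0.06 was past the threshold only with the block, at -0.16 ± 0.05.

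*Sept11*, at chr5:93093437-93176447, had 728, 1006 and 671 CPM in CTL and 722, 870.2 and 690.2 CPM in TGF-β1 cultures. The replicate 2 cultures were the highest of each group, and the log2 difference of -0.07 ± 0.17 was less than its error and became 0.12 without CTL replicate 2. *Sept6*, at chrX:36911326-36991794, shares 3.1% of its exon bases with *Gm15008* on the opposite strand and had 11.2, 10.7 and 13.5 CPM in CTL and 11.6, 12.9 and 14.3 CPM in TGF-β1 cultures, with overlap and a log2 difference of 0.13 ± 0.13. *Sept7*, at chr9:25252439-25308571, had 281, 312 and 268 CPM in CTL and 267, 308 and 284 CPM in TGF-β1 cultures. Its values overlapped, its log2 difference was -0.003 ± 0.08, and its sign turned with the processing.

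Ratios of members within a culture do not depend on library scaling. Their size depends on the exon lengths used, and their difference between the groups does not. The log2 ratio of *Sept9* to *Sept7* per kb was -0.71, -0.47 and -0.52 in CTL and -0.12, 0.23 and -0.2 in TGF-β1 cultures, so that the pair was nearer to equal levels after treatment. For *Sept4* to *Sept2*, both of the SEPT2 group, the log2 ratio was -2.76 ± 0.09 in CTL and -4.65 ± 0.15 in TGF-β1 cultures (SD, n = 3). For *Sept8* to *Sept11*, both of the SEPT6 group, it was -2.09 ± 0.25 and -2.39 ± 0.25, and the cultures overlapped.

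The other septin genes in the tables were rare. *Sept3*, a relative of *Sept9* known from neurons, had 5.46, 3.01 and 9.64 CPM in CTL and 1.83, 1.47 and 3.08 CPM in TGF-β1 cultures. The groups overlapped by 1 culture, and the log2 difference was -1.49 ± 0.49 without the block (edgeR adjusted p = 0.108) and -1.47 ± 0.15 with it (adjusted p = 0.000261). DESeq2, without the block, also placed *Sept3* past the threshold as lower (adjusted p = 0.0151). *Sept1* had 11 to 21 counts per culture and a log2 difference of 0.36 ± 0.28 (adjusted p = 0.465). *Sept12* had 0 counts in every culture, below the 3-count floor, and *Sept14* had 1 count, in CTL replicate 2.

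Differences between replicate numbers do not use the TGF-β1 contrast and were tested with the treatment held as a term. Of the 9 members, 3 passed (*Sept5*, *Sept9*, *Sept11*), next to 18.1% of all genes (2874 of 15862). *Sept5* was higher in replicate 2 than in replicate 1 by 0.72 on the log2 scale (edgeR adjusted p = 0.000153), *Sept9* by 0.47 (adjusted p = 0.00365) and *Sept11* by 0.37 (adjusted p = 0.00667). Replicate 3 differed from replicate 1 by -0.08, 0.06 and -0.09 for these genes, so that replicate 2 stood apart. In both conditions, these 3 septins were highest in replicate 2, as was *Sept7*, which did not pass (edgeR adjusted p = 0.107). The replicate 2 cultures also had the highest fibroblast and pericyte marker sum, the lowest epithelial marker sum and the Y-linked transcripts. *Col1a1* made up most of the first sum, at 1465 and 1835 CPM in CTL and TGF-β1 replicate 2. *Pdgfrb* and *Dcn* were also highest there, and *Pdgfra* in replicate 3. *Epcam*, *Cdh1*, *Krt8*, *Krt18* and *Krt19* passed the replicate test, and *Cdh16* and *Pax8* did not (edgeR adjusted p = 0.317 and 0.367). The part of these markers and transcripts in the septin differences was not tested. Each number has only 2 cultures, which may share an animal. *Sept4* and *Sept8*, the members that fell, did not pass this test, at -0.10 and 0.01 between replicates 2 and 1 (adjusted p = 0.682 and 0.954).

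The genes most like *Sept4* were sought among 10902 genes by the root mean square distance of centred log2 CPM over the 6 cultures. *Smtnl2* was the nearest at 0.054, followed by *Plac8* at 0.078, *Tmem178* at 0.1, *Palm3* at 0.111 and *ccdc198* (so spelled in the annotation) at 0.126. The profile of *Sept4* itself has a root mean square of 0.869 around its mean. *Smtnl2* had 16.1, 16.4 and 15.0 CPM in CTL and 5.13, 4.65 and 5.01 CPM in TGF-β1 cultures. All 5 share the step between the groups, which follows from how they were sought.

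**Figure D4:**
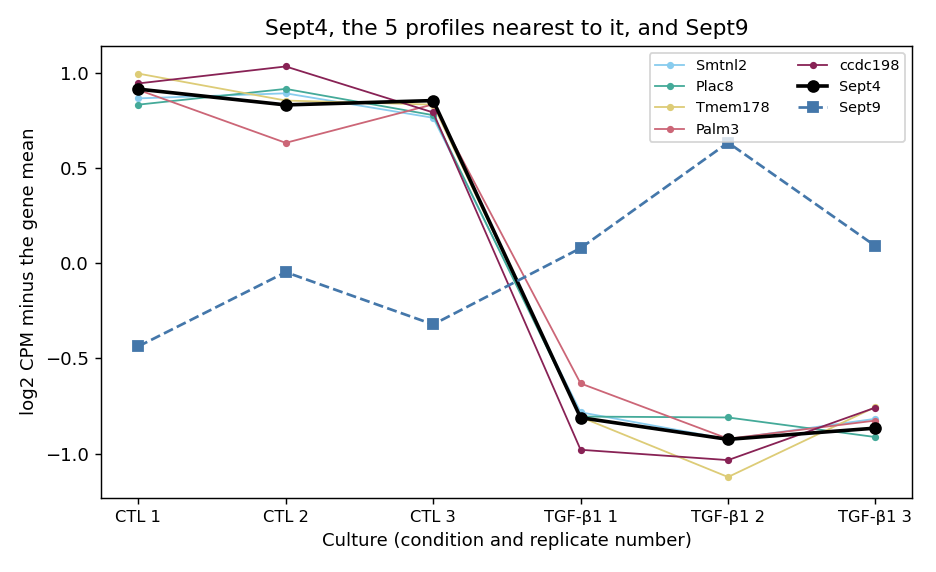
Log2 CPM minus the mean of the gene over the 6 cultures (y axis) by culture (x axis) for *Sept4* (black), the 5 genes nearest to it and *Sept9* (dashed blue). The near genes, picked for their nearness over these cultures, step down with *Sept4* between CTL and TGF-β1. *Sept9* is higher in the TGF-β1 cultures and has a peak in replicate 2 of each group.

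Genes whose products bind septins or act with them were examined as 4 lists with 33 genes, of which 2 rose and 10 fell (5 and 16 with the replicate block), next to 5.00% and 6.69% of all genes (15.1% and 19.1% with the block). At an unadjusted p under 0.05, 2 were higher and 14 lower, and DESeq2 called 2 higher and 12 lower. In the cytokinesis list, 8 of 10 genes fell, 0 rose and the median log2 difference was -1.22, the lowest of the 4 lists, where 6.69% of all genes fell. Leaving out CTL replicate 1 brought the 8 to 2 and leaving out TGF-β1 replicate 1 to 4, and without both it was 0, or 9 with the block. Over all genes, the number that fell went from 1061 to 186 and 193 in these fits. Without both it was 0, or 1649 with the block. At an unadjusted p under 0.05, 0 of its genes were higher and 9 lower, and DESeq2 called 0 higher and 8 lower. *Plk1*, a mitotic kinase, had 5.00, 5.65 and 4.20 CPM in CTL and 1.83, 1.08 and 1.19 CPM in TGF-β1 cultures, and fell by 1.86 ± 0.24 on the log2 scale (edgeR adjusted p = 0.00951). *Aurkb*, the kinase of the chromosomal passenger complex, fell by 1.77 ± 0.19 (adjusted p = 0.00588). *Prc1*, a bundler of midzone microtubules, fell by 1.56 ± 0.17 (adjusted p = 0.00593), and *Cep55*, of the midbody, fell by 1.56 ± 0.20 (adjusted p = 0.00908).

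*Prc1* and *Aurkb* passed without each of the 6 cultures in turn, *Plk1* without 5 and *Cep55* without 4 of them. Anillin (*Anln*), the furrow protein that recruits septins, had 22.0, 22.4 and 18.8 CPM in CTL and 14.6, 10.5 and 13.6 CPM in TGF-β1 cultures. It fell by 0.71 ± 0.14 (adjusted p = 0.029), and passed in 2 of the 6 fits with a culture left out. *Cit* and *Racgap1* did not pass, at 0.49 ± 0.27 (adjusted p = 0.293) and -0.52 ± 0.18 (adjusted p = 0.122). They passed with the block, at 0.50 and -0.50 (adjusted p = 0.0304 and 0.00576).

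**Figure D5:**
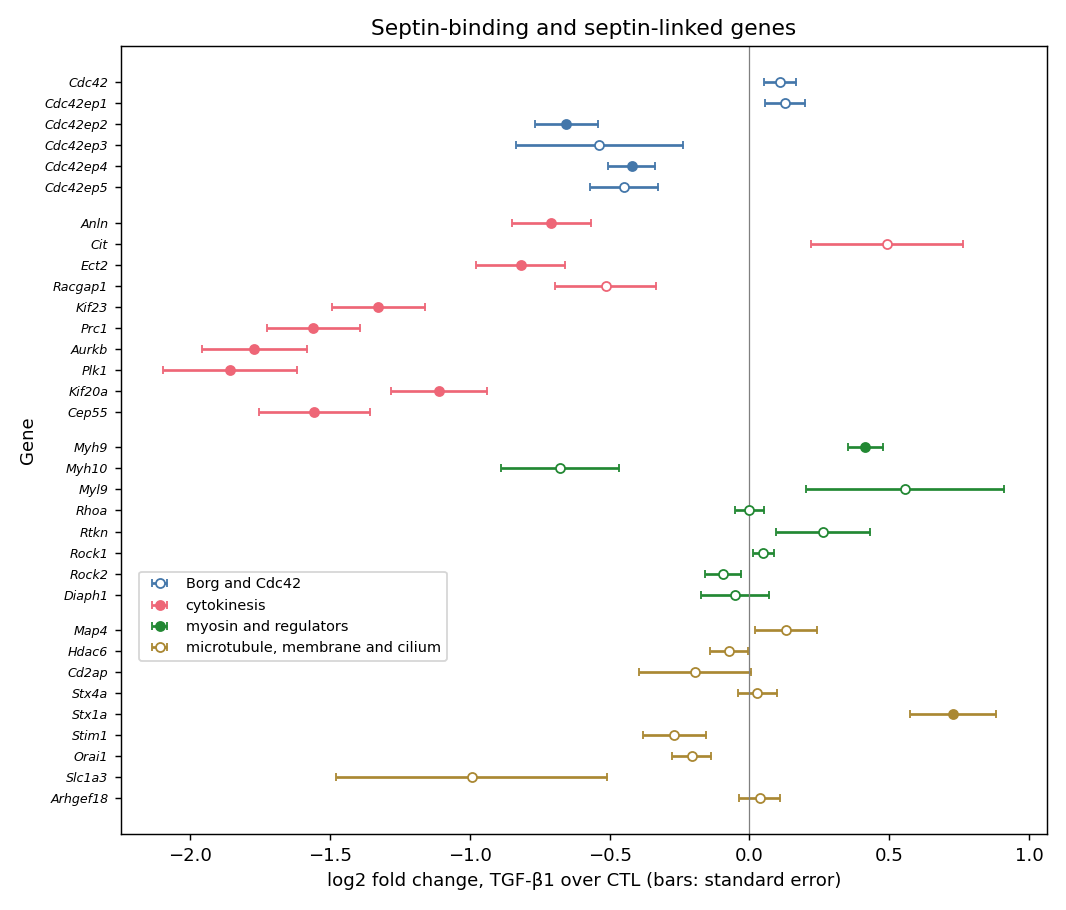
Log2 fold change of TGF-β1 over CTL (x axis, bars of 1 SE, without the replicate block) for the 33 genes of the 4 lists (y axis), filled where the edgeR adjusted p was under 0.05. Of the cytokinesis genes (red), 8 of 10 are filled and left of 0, and the genes of the other lists lie mostly nearer to 0.

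The Borg proteins are Cdc42 effectors that bind septins and organise their filaments. In the list of Cdc42 and 5 Borg genes, 2 of 6 fell, 0 rose and the median log2 difference was -0.44, next to 6.69% and 5.00% of all genes that fell and rose. At an unadjusted p under 0.05, 0 were higher and 3 lower, and DESeq2 called 0 higher and 3 lower. *Cdc42ep2* had 6.83, 6.77 and 6.89 CPM in CTL and 4.84, 3.96 and 4.21 CPM in TGF-β1 cultures and fell by 0.65 ± 0.11 (adjusted p = 0.0202). *Cdc42ep4* had 37.5, 38.6 and 32.8 CPM in CTL and 26.5, 29.1 and 25.7 CPM in TGF-β1 cultures and fell by 0.42 ± 0.09 (adjusted p = 0.0296). Their groups did not overlap, but with single cultures left out *Cdc42ep2* passed in 1 and *Cdc42ep4* in 2 of 6 fits, and neither without CTL replicate 1, CTL replicate 2, TGF-β1 replicate 1 or TGF-β1 replicate 3. *Cdc42ep5* passed only with the block, at -0.45 ± 0.11 (adjusted p = 0.0144), and *Cdc42* itself was at 0.11 ± 0.06 (adjusted p = 0.269).

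Of 8 genes of non-muscle myosin and its regulation, 1 rose and 0 fell in edgeR, with a median log2 difference of 0.02, and 1 was lower at an unadjusted p under 0.05 and by DESeq2. *Myh9*, the heavy chain of non-muscle myosin IIA, to which septins bind on stress fibres, had 2711, 2716 and 2787 CPM in CTL and 3710.0, 3663 and 3577 CPM in TGF-β1 cultures. It rose by 0.41 ± 0.06 (adjusted p = 0.0144) and passed in 4 of 6 fits with a culture left out. *Myh10*, of myosin IIB, was at -0.68 ± 0.21 (adjusted p = 0.0971) and passed with the block at -0.64 ± 0.11 (adjusted p = 0.00589), while *Myl9* and *Rtkn* passed with the block at 0.58 ± 0.05 and 0.27 ± 0.06 (adjusted p = 0.000106 and 0.00799).

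Of 9 genes of microtubules, membrane traffic and the cilium, 1 rose and 0 fell in edgeR, with a median log2 difference of -0.07, and 1 was lower at an unadjusted p under 0.05 and 0 by DESeq2. *Stx1a*, syntaxin 1A, the partner of SEPT5, had 11.4, 11.6 and 10.8 CPM in CTL and 18.2, 22.9 and 15.1 CPM in TGF-β1 cultures. It rose by 0.73 ± 0.15 (adjusted p = 0.0347) and passed in 2 of 6 fits with a culture left out. *Cd2ap*, *Orai1* and *Slc1a3* fell only in the fit with the block (adjusted p = 0.00885, 0.0448 and 0.00676).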

How the data were processed

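Libraries were made from poly(A) RNA (TruSeq, 100 ng, 50-base single-end reads). The authors trimmed reads with Trim Galore, aligned them to GRCm38 with STAR 2.4.1d and deposited gene counts from HTSeq 0.6.1, per the submitters' processing notes. The annotation release is not given in the sources used here, and neither is the strand setting. GENCODE M21 gave symbols for 46005 of 46517 genes, exon lengths and coordinates (GRCm38). HTSeq rows that name no gene were left out of totals. Ambiguous reads were 1.88 to 1.97%, reads aligned to several places 18.7 to 19.4%, and reads outside genes 4.16 to 4.93% of all reads.

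Sample titles gave each culture's group and replicate number. Nothing in the labels says that replicates came from separate animals, so p-values measure the spread between these cultures. Summed Y-linked transcripts were 151 and 142 CPM in the replicate 2 cultures and at most 0.172 CPM in the others. Replicate 2 thus held cells of an animal that the others did not. Between replicates 1 and 3, the spread may be technical. Counts were filtered with filterByExpr, scaled by TMM and tested with the quasi-likelihood test of edgeR 4.0.16 (R 4.3.3), two-sided, Benjamini-Hochberg adjusted over all 15862 genes, threshold 0.05, n = 3 per group. Scripts were tested on simulated data. Alternatives used DESeq2 1.42.0, limma 3.58.1, other scalings and filters, and left-out cultures. Across genes, the deviations of a CTL and a TGF-β1 culture from their group means had a correlation of 0.34, 0.684 and 0.572 where the numbers matched and of -0.617 to 0.215 where they did not, so the numbers were taken to pair the cultures. This pairing is a pattern in the data, since the labels do not state what a number stands for.

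All 9 members are named. In each list the genes named with values were up to 4 past the threshold with the largest absolute change, and others (*Synpo*, *Emcn*, *Anln*, *Cit*, *Racgap1*, *Cdc42*, *Ccn2* and those named with the block) were chosen after their values were seen. The members and lists were chosen with earlier results of these data known. Start-site windows came from RefSeq. A planned comparison of septin proteins was not run because protein sequences were not used here. Errors are SDs over cultures or SEs of fits over cultures, and the 3-count floor covers counting error only. Some marker and response genes are not reported here.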

Additional observations from a re-analysis of the deposited data

How the results depend on the processing

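With the replicate block, 1 septin was called higher and 4 lower, against 0 and 2 without it, and 5 and 16 of the 33 partner genes, against 2 and 10. Over all genes, 2388 were higher and 3037 lower with the block, against 793 and 1061 without it. In the main fit, 4529 genes had an unadjusted p under 0.05. DESeq2 and the fit without both replicate 2 cultures called 1 septin higher, and 1201 and 1084 of all genes. At a threshold of 0.01, 1 septin was lower, and 0 partner genes were higher and 5 lower. Of all genes, 127 were then higher and 192 lower. With single cultures left out, 1 to 2 septins were lower, and 0 to 2 partner genes were higher and 2 to 10 lower. Over all genes, these fits called 109 to 516 higher and 186 to 807 lower. Without replicate 1 in both groups, 0 septins were lower, and 0 and 0 partner genes were called by edgeR. That fit called 0 of all genes, and 1938 genes had an unadjusted p under 0.05. Without replicate 3 in both, 1 septin was lower, and 0 partner genes were higher and 3 lower, next to 95 and 190 of all genes. With the block kept, a choice made after seeing the data, 1 septin was higher without replicate 1 or 2 and 2 without replicate 3, where *Sept2* was also past the threshold. Partner genes called higher were then 6 and 6 without replicates 2 and 3, and 17 were lower without replicate 3. Without replicates 1, 2 and 3 in turn, these block fits called 1026, 2288 and 2581 of all genes higher. They called 1649, 2718 and 3254 lower.

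Signs turned only for *Sept5*, *Sept7* and *Sept11*, in fits where none of them passed. With single cultures left out, *Sept5* ranged from -0.504 to 0.096, *Sept7* from -0.063 to 0.063 and *Sept11* from -0.188 to 0.122, the positive ends all without CTL replicate 2. *Sept7* was 0.000 under RLE scaling and DESeq2, 0.003 without the filter, 0.028 and 0.008 without replicate 1 or 2 in both groups, and 0.032 and 0.008 there with the block. *Sept11* was 0.014, or 0.015 with the block, without replicate 2 in both. The causes were not tested. With the longest transcript as length, the SEPT3 group took 6.27% in CTL and 8.84% in TGF-β1 cultures, and the SEPT6 group 46.0% and 42.9%. *Sept7* then took 14.5% and 14.5%, and the SEPT2 group 33.3% and 33.8%. Shares over exon bases not shared with another gene were a choice made after seeing the data. The SEPT2 group then took 34.9% in CTL and 34.6% in TGF-β1 cultures, and the SEPT6 group 47.6% and 44.6%. *Sept7* took 10.2% and 10.4%, and the SEPT3 group 7.29% and 10.4%. The 3 members called by replicate number were the same under RLE and library-size scaling. With 3 cultures per group, small differences are beyond what these data can show.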
